A study of Homo sapiens with 42 samples.

Results

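HSPA5, HSP90B1, CALR, CANX, PDIA3, PDIA4, PDIA6, DNAJB9, HERPUD1 and XBP1 are 10 genes of protein folding in the endoplasmic reticulum (ER) and of the response to its overload. They were chosen by name, and every table row that belongs to them was summed per gene. They are 10 of 42145 genes with rows in the 3 deposited tables, and together have 51 rows. Of these, 18 are annotated transcript ends and 33 are genomic positions listed with them.

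Secreted and membrane proteins fold inside the ER. HSPA5 (BiP) and HSP90B1 (GRP94) are its main HSP70 and HSP90 chaperones, CALR (calreticulin) and CANX (calnexin) bind sugar-tagged glycoproteins, PDIA3, PDIA4 and PDIA6 are disulfide isomerases, DNAJB9 is a co-chaperone of HSPA5, HERPUD1 serves the removal of misfolded proteins, and XBP1 is a transcription factor. When misfolded proteins build up, the sensors IRE1 (ERN1), ATF6 and PERK (EIF2AK3) start the unfolded protein response: ATF6 and spliced XBP1 raise chaperone genes, while PERK raises translation of ATF4, whose targets include DDIT3, TRIB3 and ASNS. Other stresses also raise ATF4 without the ER sensors, which is why the ATF4 targets are shown beside the chaperones.

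Poly(A) 3′ ends were sequenced with QuantSeq REV, which yields reads at transcript ends, in 42 libraries of MDA-MB-231, an established human breast cancer line. The libraries form 14 groups of 3. The first table holds cytoplasmic and nuclear RNA of Par cells, labelled poorly metastatic, and of LM2 cells, labelled highly metastatic to the lungs. The second holds the same fractions of poorly metastatic cells with HNRNPC knockdown (gHNRNPC) or its control (gCTRL), and the third holds total RNA of LM2 cells given 3 µM T4 in DMSO, or DMSO alone, for 6 h. Those cells were harvested at 6 h, or at 24 or 72 h after a change of medium. HNRNPC encodes an RNA-binding protein of the nucleus, and T4 is a compound known here only by that code. All groups share the same DMEM medium with 10% serum, and the labels do not give clones or the means of knockdown. The labels also do not say that replicates were separate cultures, so each p-value speaks of the variation among these libraries alone, and that may be technical. In such bulk samples fewer cells of a kind and less RNA per cell cannot be told apart.

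Levels are CPM, counts scaled to a library's total after TMM adjustment, given for libraries 1, 2 and 3 in that order, and changes are log2 values ± standard error (SE) from edgeR. A gene is called when its adjusted p (edgeR quasi-likelihood test, Benjamini-Hochberg over all genes tested in that comparison) is under 0.05. Depth was 0.798 to 2.3 M counts per library. HNRNPC was at 86.8, 113 and 99.9 CPM in gHNRNPC cytoplasm against 549, 490 and 496 CPM in gCTRL, and at 86.9, 117 and 91.5 against 439, 531 and 631 CPM in nuclei. Log2 levels of 37 libraries correlated at 0.926 to 0.982 with the mean of the others of their group, across genes. The other 5 lay lower: library 3 of T4 at 6 h (0.870), libraries 1 and 2 of LM2 nuclei (0.880 and 0.881) and libraries 1 and 2 of Par nuclei (0.893 and 0.842). Main results of the members resting on these are also given without library 3 of T4, or without both nuclear libraries numbered 2. The TMM factors of those nuclear libraries were 0.721 and 0.731. Results of the lists shown beside the members are given with all libraries only. Of the line's markers, VIM (188 to 1220 CPM over group means), CD44 and AXL were present while KRT18 stayed at or below 2.19 CPM. Markers of other cell types were low or absent except CD68 (3.23 to 77.1 CPM) and COL1A1 (0.276 to 49.6 CPM). These are taken up beside some of the results they moved with.

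Several of the chaperone genes share a promoter element, the ER stress element (ERSE), which is known to be read by ATF6 together with NF-Y. Its letters are shown here because they were found in most of the genes followed below. RefSeq promoter windows (GRCh38.p14, 250 bases before to 50 after a gene's start) were given for 9 of the 10 genes, 15 windows in all, with none for PDIA3. The ERSE was searched on both strands as CCAAT, 9 bases of any kind and CCACG, and stood in 27 of 35116 windows (0.0769%). It was found in windows of 6 of the genes, HSPA5, HSP90B1, CALR, CANX, PDIA6 and XBP1. The windows of PDIA4, DNAJB9 and HERPUD1 held no match. HSP90B1 had a second match on the opposite strand, 89 to 71 bases before the start, which is not printed. The stretches below are written 5′ to 3′ along the gene, with the match in capitals. On the opposite strand, as in CALR, the capitals show the element's complement.
HSPA5 (chr9:125241371-125241429, minus strand, 66 to 48 bases before the start): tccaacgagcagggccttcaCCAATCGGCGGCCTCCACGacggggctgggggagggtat
HSP90B1 (chr12:103930196-103930254, plus strand, 194 to 176 bases before the start): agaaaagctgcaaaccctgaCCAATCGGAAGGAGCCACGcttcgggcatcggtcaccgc
CALR (chr19:12938364-12938422, plus strand, 225 to 207 bases before the start): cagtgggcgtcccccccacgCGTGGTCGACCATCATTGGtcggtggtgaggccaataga
PDIA6 (chr2:10812833-10812891, minus strand, 86 to 68 bases before the start): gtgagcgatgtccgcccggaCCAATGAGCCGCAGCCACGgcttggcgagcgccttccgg
XBP1 (chr22:28800583-28800641, minus strand, 52 to 34 bases before the start): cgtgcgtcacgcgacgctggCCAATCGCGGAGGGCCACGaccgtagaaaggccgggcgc

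HERPUD1 differed in its elements. Its window held the related ERSE-II, searched on both strands as ATTGG, 1 base of any kind and CCACG, and present in 19 of 35116 windows (0.0541%). The same window held, on the opposite strand, the element read by ATF4 and C/EBP proteins (CARE), searched on both strands as TGATG, 1 base of any kind and AA, and present in 1270 windows (3.62%). HERPUD1 was the one gene of the 9 with a window to hold either. The core TGACGTG of the UPRE, an element bound by XBP1 and ATF6, stood in 692 windows (1.97%) and in none of these 15. A match is a description of letters in this window, not a proof of a working site. The ERSE-II, 117 to 107 bases before the start, and the CARE, 176 to 169 bases before it, are shown in turn.
HERPUD1, ERSE-II (chr16:56932005-56932055, plus strand): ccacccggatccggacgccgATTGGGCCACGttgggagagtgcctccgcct
HERPUD1, CARE (chr16:56931946-56931993, plus strand): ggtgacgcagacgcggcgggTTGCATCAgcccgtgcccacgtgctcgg

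CALR (chromosome 19, 12938578 to 12944489, plus strand, in GENCODE 29 on GRCh38, as are all gene coordinates) had the highest level of the 10 in all 14 groups, with no library of the next gene reaching it. It took 52.8 to 70.7% of their summed CPM. HSP90B1 (chromosome 12, 103930107 to 103953645, plus strand) came next in all 4 nuclear groups and all 6 groups of total RNA, while XBP1 (chromosome 22, 28794555 to 28800597, minus strand) came next in all 4 cytoplasmic groups. The libraries of HSP90B1 overlapped those of PDIA6, the gene below it, in gCTRL nuclei and in 4 of the groups of total RNA, while XBP1 stood clear of the gene below it in all 4 cytoplasmic groups. Further down, most neighbours overlapped. PDIA3 (chromosome 15, 43746392 to 43773279, plus strand) was lowest throughout, at 0 to 6.46 CPM. Reads at 3′ ends are not divided by length, so these are levels per transcript end. The tables hold only listed ends, so that a transcript ending elsewhere is not in these sums, and the 3 tables were scaled separately.

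The reads of most genes came from a single row. For CALR 99.97 to 99.99% lay at its annotated 3′ end, and for XBP1 100% lay at an end listed under a transcript annotated as a retained intron. That end is shared within 50 bases by 5 transcripts, 4 of them coding. HERPUD1 (chromosome 16, 56932048 to 56944863, plus strand) had 94.3 to 99.5% at an end 977 bases upstream of its last one. HSP90B1 had 94.5 to 95.4% at an end 5718 bases upstream of its last annotated end. This end too is listed under a retained-intron transcript and is shared by 3 transcripts, 2 of them coding. Reads of transcripts that share an end cannot be told apart, so these levels are not those of the coding mRNA alone. PDIA6 (chromosome 2, 10783391 to 10837977, minus strand) had 84.8 to 87.8% at a position row, and DNAJB9 (chromosome 7, 108569568 to 108574850, plus strand) 73.1 to 81.4%. HSPA5 (chromosome 9, 125234853 to 125241330, minus strand) was split between its annotated end and a position row. CANX (chromosome 5, 179678628 to 179730925, plus strand) and PDIA4 (chromosome 7, 149003062 to 149028641, minus strand) each had several rows in use. Only 11.8% of position rows of all genes fall inside the GRCh38 span of the gene they are listed with. Their coordinates are therefore not printed, and they were tied to genes by their place in the listing.

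**Figure D1:**
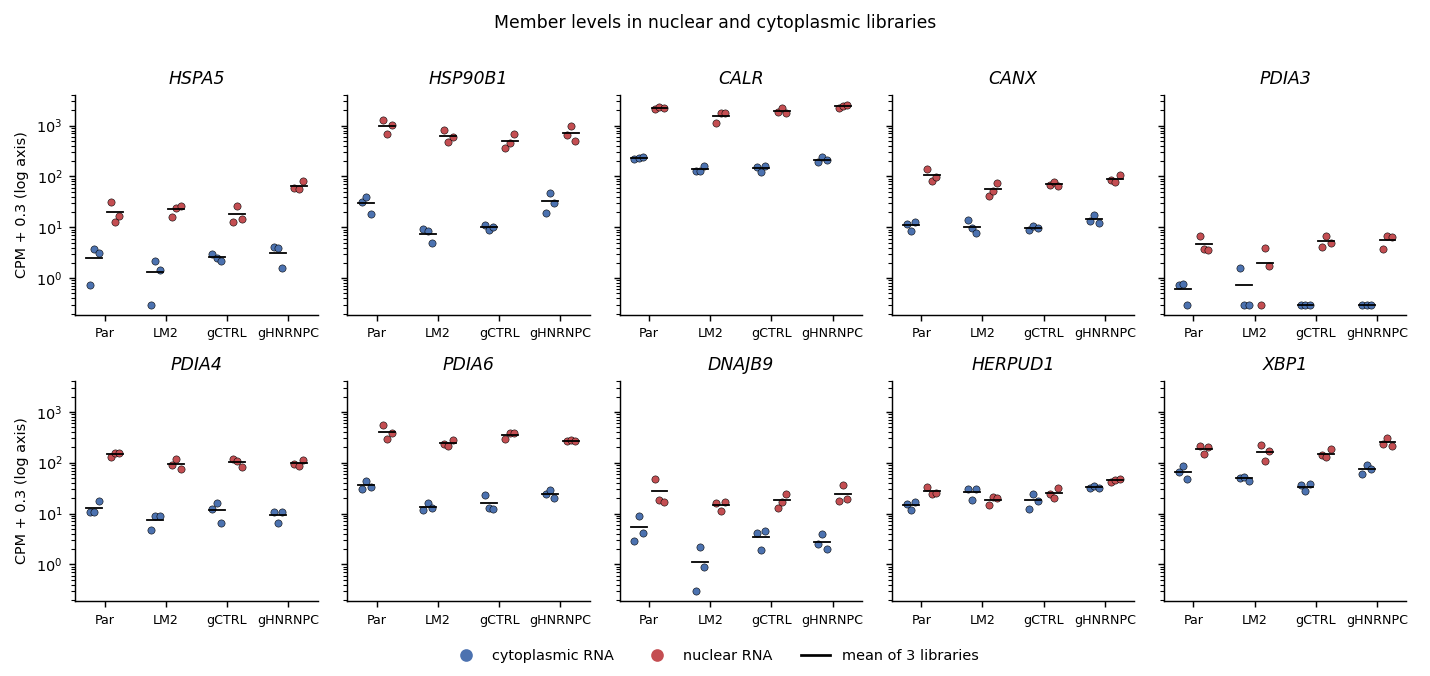
Levels of the 10 genes in cytoplasmic (blue) and nuclear (red) libraries of Par, LM2, gCTRL and gHNRNPC cells, 1 point per library, as CPM + 0.3 on a log axis, with the mean of 3 libraries as a bar. Nuclear points lie above cytoplasmic ones in all groups for HSP90B1, CALR, CANX, PDIA4, PDIA6 and XBP1, while those of HERPUD1 lie close together.

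The RNA of these genes was mostly higher in the nuclear than in the cytoplasmic libraries, and of the tested genes the gap was widest for HSP90B1 in Par, LM2 and gCTRL cells and for HSPA5 in gHNRNPC cells. In Par cells 9 of the 9 tested genes were called higher in nuclei, against 25.8% of all 8546 genes tested. In LM2 cells it was 8 of 9 against 31.5%, in gCTRL cells 8 of 9 against 33.9% of 9356, and in gHNRNPC cells 8 of 9 against 31.2%. None was called lower in nuclei in any of them, against 21.9, 23.5, 27.6 and 23.2% of all genes in Par, LM2, gCTRL and gHNRNPC cells. The median log2 difference of the genes was +3.27 in Par, +3.67 in LM2, +2.94 in gCTRL and +3.44 in gHNRNPC cells, beside +0.07, +0.22, +0.06 and +0.03 over all genes tested. PDIA3 did not pass the filter on low counts. These comparisons use the same libraries as those between cell lines and after the knockdown.

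HSP90B1, the ER's HSP90, was at 31.0, 38.9 and 17.6 CPM in Par cytoplasm and at 1303, 668 and 1017 CPM in Par nuclei. In LM2 cells it was at 8.97, 8.04 and 4.57 CPM in cytoplasm and 825, 486 and 584 CPM in nuclei. Every nuclear library was far above every cytoplasmic one. In gCTRL cells the levels were 10.9, 8.65 and 9.95 CPM in cytoplasm and 354, 463 and 685 CPM in nuclei, and in gHNRNPC cells 19.0, 47.5 and 29.6 CPM and 646, 972 and 497 CPM. The nuclear level was 34.0-fold higher in Par, 87.1-fold in LM2, 50.6-fold in gCTRL and 21.9-fold in gHNRNPC cells. These log2 differences stood at percentiles 98.9 to 99.8 of all genes tested.

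CALR, the lectin chaperone, was at 215, 228 and 243 CPM in Par cytoplasm and 2072, 2319 and 2226 CPM in nuclei, a log2 difference of +3.27. In LM2, gCTRL and gHNRNPC cells its difference was +3.48, +3.74 and +3.49, a narrow range compared with that of HSP90B1. The membrane-bound lectin CANX differed by +3.31, +2.46, +2.88 and +2.68 in Par, LM2, gCTRL and gHNRNPC cells. The isomerases were as far apart, with log2 differences of +3.50, +4.19, +4.50 and +3.49 for PDIA6 and +3.53, +3.67, +3.21 and +3.44 for PDIA4 in the same order. For these 4 genes no cytoplasmic library reached a nuclear one of the same cells.

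The 3 members with few reads lay on the same side. HSPA5, the ER's HSP70, was at 0 to 3.8 CPM in the 12 cytoplasmic libraries and at 12.7 to 80.2 CPM in the 12 nuclear ones, with log2 differences of +3.21, +4.35, +2.94 and +4.51 in Par, LM2, gCTRL and gHNRNPC cells. DNAJB9, its co-chaperone, differed by +2.47, +4.04, +2.43 and +3.26. PDIA3 had 16 nuclear against 2 cytoplasmic reads in Par cells, a 14.3-fold higher level (95% counting interval 3.37 to 129, counting error only), and 5 against 2 reads in LM2 cells (3.83-fold, 0.627 to 40.2). In gCTRL cells it had 23 reads against 0 and in gHNRNPC cells 20 against 0. With a floor of 3 counts over the cytoplasmic group the nuclear level was 9.58-fold and 10.9-fold higher. The lower 95% counting limits were 7.18-fold and 8.06-fold.

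XBP1 and HERPUD1 had the smallest differences between the fractions among the tested genes. XBP1, whose mRNA is spliced by IRE1, differed by +1.51, +1.76, +2.16 and +1.75. HERPUD1, an ER membrane protein, was at 15.1, 11.5 and 16.5 CPM in Par cytoplasm and 32.3, 24.2 and 24.8 CPM in nuclei, a call (+0.92, adjusted p = 0.013, edgeR). In LM2 cells it was at 29.5, 18.6 and 29.7 CPM in cytoplasm and 14.8, 20.4 and 19.5 CPM in nuclei, where the groups overlapped (−0.50, adjusted p = 0.12, edgeR). In gCTRL and gHNRNPC cells its differences of +0.48 and +0.46 were not called (adjusted p = 0.12 and 0.11, edgeR). These calls of HERPUD1 turned on single libraries. The call in Par cells was lost without library 2 of the cytoplasm (+0.73, adjusted p = 0.064) or library 1 of the nuclei (+0.76, adjusted p = 0.055). Leaving out library 2 of the cytoplasm made it lower in nuclei of LM2 cells (−0.72, adjusted p = 0.043) and higher in nuclei of gCTRL cells (+0.73, adjusted p = 0.034, edgeR).

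**Figure D2:**
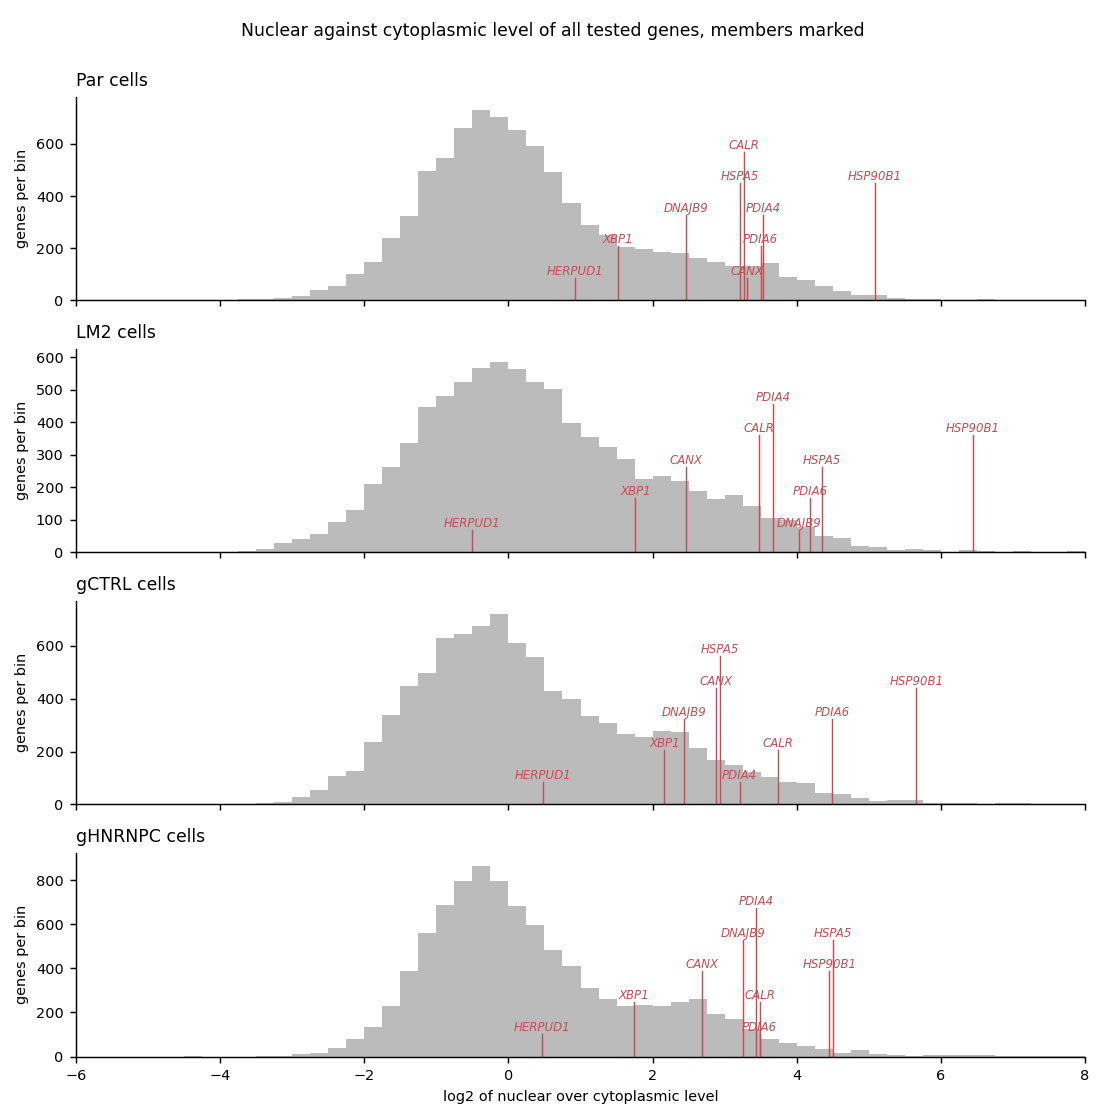
Number of tested genes per bin (grey) by the log2 of nuclear over cytoplasmic level in Par, LM2, gCTRL and gHNRNPC cells, with the members as red lines whose heights only separate the names. HSP90B1 lies at +4.46 to +6.44 in the upper tail, and HERPUD1 at −0.50 to +0.92 near the bulk.

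Most other genes of the ER lay on the same side, and most ATF4 targets did not. Of 15 other ER folding genes tested (of 20 listed), 13, 12, 13 and 13 were called higher in the nuclei of Par, LM2, gCTRL and gHNRNPC cells and 1 lower in each, with medians of +2.30, +2.14, +2.31 and +2.01. Of 12 ER-associated degradation genes (of 16), 9, 9, 10 and 9 were called higher and 1 lower. Of the UPR sensors and their proteases, 2 of 3, 2 of 3, 4 of 4 and 4 of 4 were higher. Both counts of 4 include ERN1. It passed the count filter in the knockdown table alone, through the group where it is high, so its part in them is a description. Of the ATF4 targets (26 listed), 4 were higher and 5 lower of 21 in Par cells, 4 and 7 of 21 in LM2, 5 and 11 of 25 in gCTRL, and 4 and 9 of 25 in gHNRNPC cells. Their medians were −0.29, −0.40, −0.43 and −0.06, and ATF4 itself was lower in nuclei by −1.67, −2.06, −1.85 and −1.31. The 25 targets include ATF3, STC2, WARS and VLDLR, which passed the count filter in the knockdown table alone.

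Marker RNAs of mitochondria and of the nucleus moved with this difference. The mitochondrial RNAs had been set as markers of the cytoplasm, and they lay on the opposite side. A higher level in the nuclear libraries therefore does not show that an RNA lay inside the nucleus. Mitochondrially encoded RNA (MT-CO1, MT-ND1 and MT-CYB summed) was 8.24, 5.84, 71.2 and 49.8 times as high in nuclear as in cytoplasmic libraries of Par, LM2, gCTRL and gHNRNPC cells. Its summed level was 1919 to 9426 CPM in nuclei and 92.2 to 328 CPM in cytoplasm. The nuclear RNAs MALAT1, NEAT1 and KCNQ1OT1 summed to 13.6 to 59.1 CPM in nuclei and 3.83 to 6.57 CPM in cytoplasm. MALAT1 made up nearly all of these sums. NEAT1 stayed at or below 1.29 CPM over group means and KCNQ1OT1 was at 0 throughout. The summed immune markers, mainly CD68, were at 3.23 to 18.6 CPM in cytoplasm and 23.2 to 77.3 CPM in nuclei over group means. The part of any of these RNAs in the members' difference was not tested. Without both nuclear libraries numbered 2, HSP90B1 differed by +5.30 in Par and +6.60 in LM2 cells, and the same genes were called higher as with all libraries.

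HNRNPC knockdown came with higher RNA of several of the genes. In the cytoplasm XBP1, HSP90B1, HERPUD1 and CALR were called higher, 4 of 9 tested, against 11.7% of all 9356 genes tested called higher, and none was called lower (11.7% of all genes). In nuclei HSPA5, XBP1 and HERPUD1 were called higher, 3 of 9, against 8.43% of all genes, and again none lower (5.71%). The median log2 change was +0.55 in cytoplasm and +0.43 in nuclei, beside +0.01 and +0.04 over all genes tested. Both counts shared XBP1 and HERPUD1. With library totals as the scaling, only HSPA5 was called in nuclei (HERPUD1 +0.74 and XBP1 +0.61, adjusted p = 0.060 and 0.061, edgeR).

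Markers moved with the knockdown too. The summed immune markers ranged over libraries from 4.86 to 8.16 CPM in gCTRL and from 15.7 to 20.6 CPM in gHNRNPC cytoplasm, and from 29.7 to 34.9 and from 46.8 to 125 CPM in nuclei. CD68 made up nearly all of these sums, while CD3E was at 0 throughout and PTPRC stayed at or below 0.286 CPM over group means. Mitochondrially encoded RNA was at 53.3 to 116 CPM in gCTRL and 115 to 230 CPM in gHNRNPC cytoplasm, and at 5845 to 7308 and 7874 to 11146 CPM in nuclei. The summed fibroblast markers were lower in gHNRNPC nuclei, at 2.38 to 4.54 CPM against 7.11 to 19.8 CPM in gCTRL, and overlapped in cytoplasm. The part of any of these RNAs in the results was not tested.

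HSPA5, the chaperone whose rise is the usual readout of ER stress, was at 58.8, 56.4 and 80.2 CPM in gHNRNPC nuclei and at 12.7, 25.9 and 14.5 CPM in gCTRL nuclei. All 3 knockdown libraries were above all controls, 3.68-fold on the fitted scale (+1.88 ± 0.30, adjusted p = 1.3e-04, edgeR). In the cytoplasm it was at 3.80, 3.58 and 1.29 against 2.72, 2.16 and 1.90 CPM, and the groups overlapped (+0.31, adjusted p = 0.73, edgeR). Those values rest on 17 and 13 reads, so a change of the nuclear size was not well measured there. The difference between the fractions' changes was +1.57 ± 0.66 and did not pass (adjusted p = 0.40, edgeR interaction). In the nuclei 188 of 246 HSPA5 reads (76.4%) of gHNRNPC cells lay at its annotated 3′ end, against 41 of 82 (50%) in gCTRL cells, pooled over libraries and below the minimum for a test.

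XBP1, the transcription factor of the response, was at 60.7, 89.9 and 73.7 CPM in gHNRNPC cytoplasm against 35.4, 27.0 and 38.4 CPM. No libraries overlapped (+1.15 ± 0.22, adjusted p = 6.4e-04, edgeR). In nuclei it was at 233, 304 and 216 against 143, 127 and 183 CPM, again without overlap (+0.73 ± 0.20, adjusted p = 0.016, edgeR). HERPUD1 was at 32.0, 35.3 and 31.3 against 12, 23.8 and 17.5 CPM in cytoplasm (+0.88 ± 0.26, adjusted p = 0.014, edgeR). In nuclei its levels were 41.7, 45.2 and 48.4 against 23.4, 20 and 31 CPM (+0.86 ± 0.26, adjusted p = 0.025, edgeR). The rise of HERPUD1 was thus of nearly equal size in both fractions, and no knockdown library reached down to a control. A 3′ end does not show splicing, so spliced and unspliced XBP1 are counted together.

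HSP90B1 was at 19.0, 47.5 and 29.6 CPM in gHNRNPC cytoplasm against 10.9, 8.65 and 9.95 CPM in gCTRL (+1.70 ± 0.36, adjusted p = 0.0014, edgeR). The knockdown libraries were all higher but spread widely. In nuclei the groups overlapped (+0.49, adjusted p = 0.22, edgeR), and the difference between the fractions did not pass (−1.21 ± 0.44, adjusted p = 0.34, edgeR interaction). CALR was at 194, 237 and 214 against 156, 123 and 161 CPM in cytoplasm without overlap (+0.55 ± 0.18, adjusted p = 0.029, edgeR). That call was lost in 4 of 6 fits leaving out a library (libraries 1 or 2 of gCTRL and 2 or 3 of gHNRNPC, adjusted p = 0.054 to 0.16, edgeR). With replicate numbers as a block its adjusted p was 0.060 (edgeR). Its nuclear change was +0.30 and not called.

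The calls of XBP1 and HSP90B1 in the cytoplasm held in all 14 alternative fits, and that of HSPA5 in nuclei in all 13. The call of HERPUD1 held in 4 of 6 fits leaving out a cytoplasmic library, and was lost without library 1 of gCTRL (adjusted p = 0.092, edgeR) or library 2 of gHNRNPC (adjusted p = 0.078, edgeR). In nuclei it held in 1 of 6, without library 3 of gCTRL, and the adjusted p otherwise ran from 0.068 to 0.17 (edgeR). That of XBP1 in nuclei held in 3 of 6, and was lost without libraries 1 or 2 of gCTRL or library 2 of gHNRNPC (+0.64, +0.56 and +0.52, adjusted p = 0.078, 0.14 and 0.13, edgeR). Each of these 3 libraries reduced the nuclear count of called genes from 3 to 1 when left out, and library 2 of gHNRNPC cytoplasm reduced the cytoplasmic count from 4 to 2.

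The other members did not pass after the knockdown. PDIA6 changed by +0.61 in the cytoplasm and −0.39 in nuclei (adjusted p = 0.086 and 0.19, edgeR). Without library 1 of gCTRL cytoplasm it was called higher in cytoplasm (+0.97, adjusted p = 0.017, edgeR). It was also called there with library totals (+0.75, adjusted p = 0.042, edgeR) and with rows of annotated transcript ends alone (+1.67, adjusted p = 0.048, edgeR). In the main fit its nuclear less its cytoplasmic change, −1.01 ± 0.32, had an unadjusted p of 0.0047 and an adjusted p of 0.29 (edgeR interaction). PDIA4 changed by −0.31 and −0.09, CANX by +0.55 and +0.35, and DNAJB9 by −0.40 and +0.43. PDIA3 was at 0 in all 6 cytoplasmic libraries and at 3.41 to 6.46 CPM in the 6 nuclear ones, without a test.

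**Figure D3:**
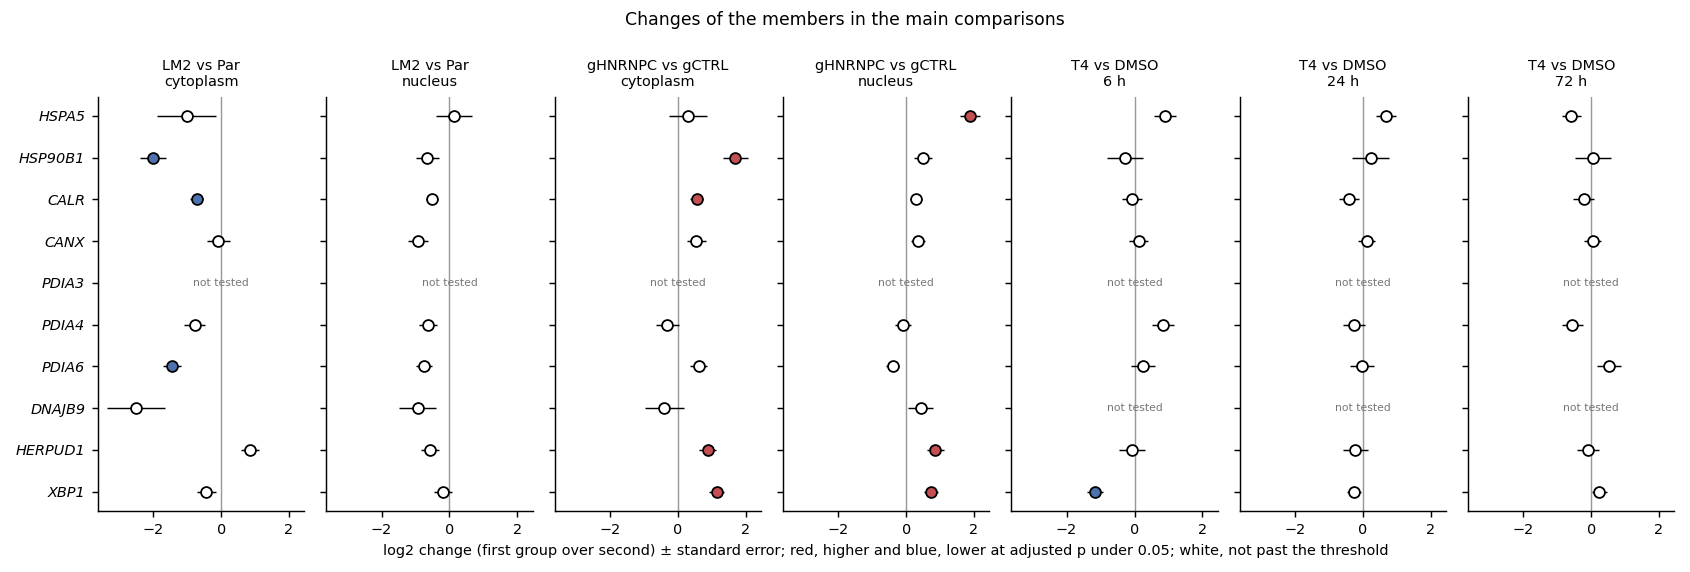
Log2 change ± SE of each gene in the 7 main comparisons, first group over second, with called genes filled red (higher) or blue (lower) and genes under the count filter marked as not tested. The knockdown columns hold 7 red points and no blue ones, LM2 cytoplasm holds 3 blue ones, and T4 at 6 h holds 1 blue point, XBP1.

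Most ATF4 targets were higher in the same knockdown libraries. Of 25 tested, 20 were called higher in cytoplasm and 19 in nuclei, against 11.7 and 8.43% of all genes, and none lower, with medians of +1.39 and +1.30. Of these, ATF3, STC2, WARS and VLDLR passed the count filter in the knockdown table and in neither of the others. The first 3 are among the calls in both fractions and had few control reads (in cytoplasm 91, 52 and 32 reads in gHNRNPC against 6, 6 and 7 in gCTRL). A gene that passes through the group where it is high had to differ. Among the 21 targets tested in all tables, 17 were called higher in cytoplasm and 16 in nuclei, with medians of +1.18 and +1.21. DDIT3 (CHOP), a transcription factor of stress, was at 691, 598 and 642 CPM in gHNRNPC cytoplasm against 123, 132 and 105 CPM in gCTRL (+2.43 ± 0.21, adjusted p = 2.8e-08, edgeR). In nuclei DDIT3 changed by +2.61, the regulator ATF5 by +2.49 and asparagine synthetase ASNS by +2.11. ATF4 changed by +0.76 in cytoplasm and +1.30 in nuclei, and the pseudokinase TRIB3 by +1.81 and +1.79. DDIT3 thus changed by a larger log2 value in nuclei than HSPA5 (+1.88) or XBP1 (+0.73), a side-by-side reading without a test. DNAJB9, another target of the spliced form of XBP1, did not pass in either fraction.

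ERN1 (IRE1), the sensor that splices XBP1, passed the count filter in the knockdown table and in neither of the others. It did so through the group where it is high, so its values are a description. It was at 26.9 ± 8.38 (SD, n = 3) against 2.82 ± 1.05 CPM in nuclei, on 101 against 13 reads (+3.23 ± 0.49). In cytoplasm it had 50 reads against 3, a ratio of 17.3 with a 95% counting interval of 5.60 to 86.8. ATF6B, a relative of the sensor ATF6, was lower in nuclei, at 150 ± 49.4 against 260.1 ± 59.7 CPM (SD, n = 3; −0.79 ± 0.26, adjusted p = 0.040, edgeR). ATF6 and the protease MBTPS1 were not called, and EIF2AK3 and MBTPS2 did not pass the count filter.

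Of 15 other ER folding genes, 3 were called higher in the cytoplasm and none in nuclei. They were the prolyl isomerase FKBP2 (+0.90), the HSPA5 co-chaperone DNAJB11 (+1.10) and the secreted ER protein MANF (+1.13). Of 12 degradation genes, DERL1 rose in both fractions (+3.23 and +2.26), and SELENOS rose in the cytoplasm (+2.01).

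In the cytoplasm some chaperone RNAs were lower in LM2 than in Par cells, though the calls depended on the scaling. PDIA6, HSP90B1 and CALR were called lower, 3 of 9 tested, against 6.93% of all 8546 genes called lower, and none was called higher (3.94%). The median of the 9 was −0.79 beside −0.02 over all genes tested. In nuclei none of the 9 was called, against 2.2% of all genes called. There 8 of 9 changes were below 0, with a median of −0.64 beside +0.01. At an unadjusted p under 0.05 (edgeR) were 4 of the 9 (CANX, PDIA6, CALR and PDIA4), beside 1186 of all 8546 genes. DESeq2 called 0 as well.

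Among markers of other cell types, the summed fibroblast markers were higher in LM2 than in Par cells, at 8 to 8.97 against 0 to 1.44 CPM over cytoplasmic libraries and 27.4 to 63.7 against 0 to 2.48 CPM over nuclear ones. COL1A1 made up most of these sums, and COL1A2 stayed at or below 0.276 CPM over group means. The summed immune markers overlapped between the lines in both fractions. The part of these RNAs in the results was not tested.

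HSP90B1 was at 8.97, 8.04 and 4.57 CPM in LM2 cytoplasm against 31.0, 38.9 and 17.6 CPM in Par (−2.02 ± 0.39, adjusted p = 0.011, edgeR). The isomerase PDIA6 was at 11.5, 15.5 and 12.6 against 30.2, 44.1 and 33.6 CPM (−1.44 ± 0.26, adjusted p = 0.0092, edgeR). For both, every LM2 library was under every Par library. CALR was at 128, 125 and 162 against 215, 228 and 243 CPM, also without overlap (−0.72 ± 0.19, adjusted p = 0.034, edgeR). Its call was lost in all 6 fits leaving out a library (adjusted p = 0.066 to 0.13, edgeR). Without library 3 of LM2 cytoplasm none of the 3 genes was called (HSP90B1 −1.77, adjusted p = 0.058, and PDIA6 −1.40, adjusted p = 0.051, edgeR), and without library 2 of Par cytoplasm only PDIA6 was (HSP90B1 −1.75, adjusted p = 0.051, edgeR). With library totals as the scaling none of the 3 was called (HSP90B1 −2.09, PDIA6 −1.51 and CALR −0.80, adjusted p = 0.057, 0.075 and 0.086, edgeR). With rows of annotated transcript ends alone PDIA6, whose main row is a position row, changed by −0.85 (adjusted p = 0.28, edgeR).

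HERPUD1 stood against the others. It was at 29.5, 18.6 and 29.7 CPM in LM2 cytoplasm against 15.1, 11.5 and 16.5 CPM in Par, with no overlap (+0.85 ± 0.25, adjusted p = 0.053, edgeR), and was not called. It was called with median-of-ratios scaling (+0.97, adjusted p = 0.041, edgeR), in a fit on these groups alone (+0.84, adjusted p = 0.024, edgeR) and with DESeq2 (+0.97, adjusted p = 0.038). In nuclei it was at 14.8, 20.4 and 19.5 against 32.3, 24.2 and 24.8 CPM (−0.57 ± 0.26, adjusted p = 0.36, edgeR). The difference between these changes was −1.42 ± 0.36, with an unadjusted p of 0.0024 and an adjusted p of 0.40 (edgeR interaction). In that test 0 of 8546 genes passed, with 757 at an unadjusted p under 0.05.

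The remaining members were not called in LM2 against Par cytoplasm. DNAJB9 changed by −2.51 ± 0.85 on 4 against 31 reads (adjusted p = 0.083, edgeR), PDIA4 by −0.79 (adjusted p = 0.13), XBP1 by −0.44, HSPA5 by −1.01 and CANX by −0.09. In nuclei CANX changed by −0.94 (adjusted p = 0.16, edgeR), PDIA6 by −0.76, PDIA4 by −0.64, HSP90B1 by −0.66, CALR by −0.51 and HSPA5 by +0.13. Without both nuclear libraries numbered 2, PDIA6 changed by −0.85 (adjusted p = 0.068, edgeR), HSPA5 by −0.15, and no member was called.

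A minority of ATF4 targets was higher in LM2 cells. Of 21 tested, 5 were called higher in LM2 cytoplasm, against 3.94% of all genes, none was called lower and 16 were not called, with a median of +0.38 and 13 changes above 0. ATF4 was at 2266, 2335 and 2477 CPM in LM2 cytoplasm against 1165, 998 and 1238 CPM in Par (+1.06, adjusted p = 0.039, edgeR), without overlap. The others were CEBPB (+1.19), the serine synthesis enzyme PHGDH (+3.18), SHMT2 (+1.03) and SARS. In nuclei CEBPB and PHGDH were called higher and 19 were not called, with a list median of +0.18. Whether the list differed from the chaperone genes was not tested. Among other ER folding genes MANF was called lower in the cytoplasm (−1.21), and among degradation genes the ATPase VCP (−0.66). The knockdown and the LM2 comparison share no libraries, and HSP90B1 changed by +1.70 in the former and by −2.02 in the latter, CALR by +0.55 and −0.72.

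**Figure D4:**
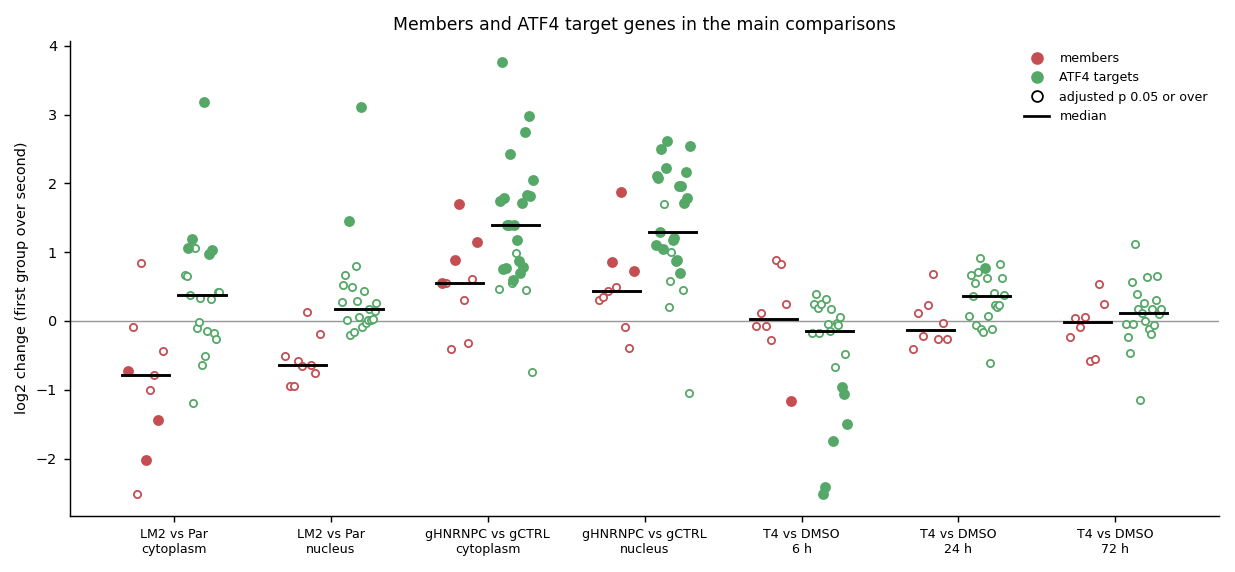
Log2 change of each tested member (red) and ATF4 target (green) in the 7 main comparisons, filled where called, with the list median as a bar. Medians of the targets lie above those of the members in all comparisons but T4 at 6 h, where they are −0.14 and +0.03.

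T4 was followed by lower XBP1 at 6 h and by no called change of the genes later. At 6 h 1 of 8 tested was called, lower. This share of 12.5% is near the 12.6% of all 8039 genes called lower, and 3.41% of all were called higher. At 24 h 0 of 8 was called against 5.24% of all genes, and at 72 h 0 of 8 against 0.261%. At 24 h only HSPA5 had an unadjusted p under 0.05 (edgeR), beside 1987 of all 8039 genes. At 72 h none did, beside 680 of all genes, and DESeq2 called 0 at both harvests. The medians of the 8 were +0.03, −0.13 and −0.02 at 6, 24 and 72 h, beside −0.11, +0.02 and −0.01 over all genes tested. DNAJB9 and PDIA3 did not pass the count filter, with DNAJB9 at 0 to 6.48 CPM and PDIA3 at 0 to 2.27 CPM. Markers moved with T4 as well. The summed markers of the line were at 525 to 623 CPM with T4 at 24 h against 1013 to 1128 CPM over libraries. The summed immune markers were at 6.89 to 16.4 CPM with T4 at 72 h against 17.8 to 26.6 CPM. Their part in the results was not tested.

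XBP1 was at 36.3, 35.4 and 18.1 CPM with T4 at 6 h against 72.1, 67.8 and 72.1 CPM with DMSO (−1.16 ± 0.24, adjusted p = 0.0025, edgeR). All T4 libraries were well below the DMSO ones. Without library 3 of T4 the change was −0.90 ± 0.22 (adjusted p = 0.010, edgeR). In a fit on these 6 libraries alone the adjusted p was 0.052 (edgeR). At 24 h XBP1 was at 51.3, 52.3 and 67.3 against 69.2, 75.8 and 59.2 CPM, and at 72 h at 83.4, 108 and 71.6 against 69.9, 74.2 and 78.7 CPM. Groups overlapped at both later harvests. The change of the effect from 6 to 24 h was +0.91 ± 0.32 (adjusted p = 0.082, edgeR interaction). Without library 3 of T4 at 6 h it was +0.54 ± 0.28 (adjusted p = 0.22, edgeR interaction).

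Library 3 of T4 at 6 h stood apart for most of the other genes. Its depth was 0.925 M counts, and its TMM factor was 0.500, beside 0.843 and 0.862 for the others. HSP90B1 was at 246 and 196 CPM in libraries 1 and 2 and at 6.80 CPM in library 3, against 182, 179 and 201 CPM with DMSO. CALR was at 1119, 1136 and 333 against 917, 928 and 876 CPM, and PDIA6 at 158, 185 and 31.7 against 112, 105 and 109 CPM. PDIA4 went the other way, at 40.9, 50.4 and 127 against 43.6, 27.9 and 42.2 CPM (+0.83 ± 0.33, adjusted p = 0.092, edgeR), and was called without T4 library 1 (+1.14, adjusted p = 0.028, edgeR). For CALR and PDIA6, libraries 1 and 2 of T4 were above all DMSO libraries while library 3 was below them.

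Without that library PDIA6 was called higher at 6 h (+0.73 ± 0.21, adjusted p = 0.029, edgeR), and XBP1 remained called. CALR changed by +0.39 (adjusted p = 0.076, edgeR), HSP90B1 by +0.32, PDIA4 by +0.34 and HERPUD1 by −0.48. The fall of the effect from 6 to 24 h then passed for CALR (−0.91 ± 0.19, adjusted p = 0.0047) and PDIA6 (−0.87 ± 0.29, adjusted p = 0.047, edgeR interaction). With all libraries these differences were −0.35 and −0.29 and were not called.

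HSPA5 had the clearest difference among the genes not called. At 6 h it was at 17.3, 14.9 and 22.7 CPM with T4 against 13.5, 7.98 and 7.15 CPM (+0.89 ± 0.32, adjusted p = 0.066, edgeR). It passed without DMSO library 1 (+1.21, adjusted p = 0.033, edgeR). Without library 3 of T4, which held its highest value, it changed by +0.84 ± 0.34 (adjusted p = 0.11, edgeR). At 24 h it was at 16.8, 12.1 and 15.4 against 9.53, 8.63 and 9.35 CPM (+0.68 ± 0.30, adjusted p = 0.18, edgeR). The groups did not overlap at either time, though neither change passed. At 72 h it was at 11.3, 9.42 and 10.2 against 10.8, 19.8 and 15.2 CPM (−0.59, adjusted p = 0.60, edgeR). The effect at 72 h less that at 24 h was −1.26 ± 0.42 (adjusted p = 0.19, edgeR interaction).

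Differences at later harvests were small. CALR was at 657, 742 and 683 CPM with T4 at 24 h against 875, 923 and 975 CPM, without overlap (−0.41, adjusted p = 0.40, edgeR). PDIA6 at 72 h was at 147, 185 and 136 against 110, 115 and 99.1 CPM (+0.53, adjusted p = 0.72, edgeR). PDIA4 at 72 h was at 32.0, 26.7 and 28.0 against 45.3, 40.2 and 41.6 CPM (−0.55, adjusted p = 0.68, edgeR). The isomerases lay in opposite directions at 72 h. Neither overlapped between groups, and nor did CALR (−0.23, adjusted p = 0.84, edgeR) or the untested DNAJB9. The share of all genes without overlap is not given, so this is a description. CANX at 6 h was at 35.4, 42.9 and 34.0 against 39.6, 32.7 and 32.5 CPM, and HERPUD1 at 12.7, 9.33 and 31.7 against 11.9, 19.9 and 16.9 CPM, both with overlap.

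**Figure D5:**
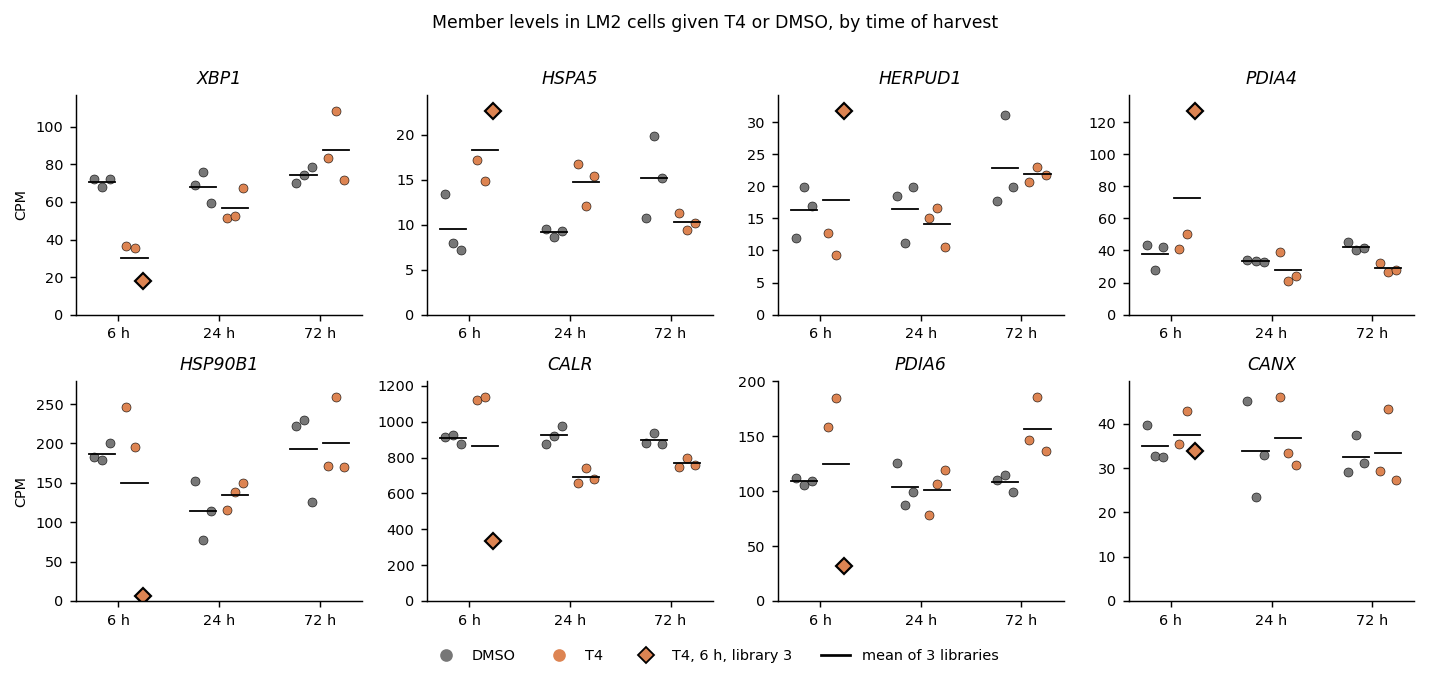
CPM of the 8 tested genes in LM2 cells given T4 (orange) or DMSO (grey) for 6 h, by time of harvest, 1 point per library with the mean of 3 as a bar and library 3 of T4 at 6 h as a diamond. XBP1 lies lower with T4 at 6 h, from 18.1 to 36.3 CPM, and the diamond lies far from both other T4 libraries for HSP90B1, CALR, PDIA6 and PDIA4.

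Some ATF4 targets fell at 6 h. All values of this list are from fits that included library 3 of T4 at 6 h. Of 21 tested, 0 were called higher and 6 lower, against 12.6% of all genes called lower, with a median of −0.14. DDIT3 was at 27.3, 21.5 and 27.2 CPM with T4 against 143, 112 and 145 CPM (−2.41 ± 0.20, adjusted p = 6.7e-07, edgeR). TRIB3 was at 17.3, 13.1 and 6.80 against 33.3, 40.7 and 39.6 CPM (−1.49, adjusted p = 0.0067, edgeR). The glutathione-degrading enzyme CHAC1 fell by 2.52 and the phosphatase subunit PPP1R15A by 1.74 on the log2 scale. ATF4 itself (+0.39) and ASNS (+0.25) were not called. At 24 h only GARS of the list was called (+0.77), and at 72 h none was. The change of effect from 6 to 24 h was called for 6 of 21 targets, all upward, and for 0 of the 8 chaperone genes, against 9.09% of all genes. No other ER folding, degradation or sensor gene was called at any of the 3 times (15, 10 and 3 tested).

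None of the 4 members with enough reads at more than a single row, CANX, PDIA6, PDIA4 and HSP90B1, was called for a change in the use of its ends in the 7 comparisons. Over all genes tested, the share called with the edgeR interaction test was 0.187% in LM2 cytoplasm, 11.6 and 3.68% after the knockdown in each fraction (cytoplasm, nuclei), and with T4 5.45% at 6 h and 2.48% at 24 h. It was 0% in LM2 nuclei, with 45 genes at an unadjusted p under 0.05, and 0% for T4 at 72 h, with 29. The nearest was HSP90B1 in the knockdown cytoplasm. Its main end held 90.6, 92.5 and 95.5% of the reads at its 2 most used rows in gHNRNPC libraries and 85.0, 53.3 and 80.0% in gCTRL libraries, without overlap. The change was +2.23 ± 0.79 (adjusted p = 0.071, edgeR), and with limma +1.77 (adjusted p = 0.019). The control values rest on 15 to 20 reads each. PDIA6 and PDIA4 in knockdown nuclei and CANX for T4 at 72 h also had an unadjusted p under 0.05 (adjusted p = 0.26, 0.30 and 1.00, edgeR). In knockdown nuclei 186 of all 1169 genes tested had such an unadjusted p.

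The fractions' changes were compared gene by gene, and with the edgeR interaction test 0 of the 9 genes passed for LM2 (0% of all genes) or for the knockdown (0.0214%). Between the T4 effects at 72 and 24 h 0 of 8 passed (0.0871%). At an unadjusted p under 0.05 (edgeR interaction) were HERPUD1 and HSP90B1 for LM2, beside 757 of all 8546 genes. For the knockdown they were HSPA5, PDIA6 and HSP90B1, beside 1000 of 9356. For T4 they were XBP1 and PDIA4 from 6 to 24 h, beside 1866 of 8039, and HSPA5 from 24 to 72 h, beside 1360. DESeq2 called 0 in all 4 tests. Over the 42 libraries, after subtracting the mean of each table and fraction, HSP90B1 and PDIA6 had the most similar log2 levels of any pair of members (Pearson r = 0.83), and XBP1 and PDIA4 the least (r = −0.51). Of 7640 genes tested in all tables, those most like XBP1 were TOB2 (r = 0.90), CSTF3 (0.89), MOGS (0.88), ESRRA (0.87) and SLC35A2 (0.87). For HSPA5 they were KRT81 (r = 0.58), SLC25A4 (0.57), SYNJ2BP (0.57), CDKN1A (0.56) and TPI1 (0.56), a weaker likeness. The points share libraries, depth and scaling, and these are descriptions.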

How the data were processed

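The authors deposited 3 tables of expected counts, by transcript end or position. They were made with Salmon 0.14.1 on hg38, per the submitters' processing notes. Each table has 94924 rows (71604 transcript ends, 23320 positions). GENCODE 29 held 66115 of the transcripts, 56449 in the same version, and positions were given to the gene of the transcript row above them. In all 89113 rows were summed over 42145 genes and rounded. Values were whole in 98.3 to 98.6% of cases, and rows left out held 0.92 to 4.13% of a library's reads.

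The edgeR 4.0.16 quasi-likelihood test (R 4.3.3, TMM, filterByExpr) was fitted to all libraries of a table, on 8546 genes (LM2 table), 9356 (knockdown) and 8039 (T4). SE is the change divided by the square root of its F value. End use was tested at a gene's 2 most used rows if each averaged 10 counts or more. Statistics were tested on simulated data. Alternatives used DESeq2 1.42.0, median-of-ratios scaling, library totals, no filter, fewer rows or libraries, limma 3.58.1 and a replicate block. The fit without both nuclear libraries numbered 2 was added after the data were seen. Promoters came from RefSeq.

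The members and lists were chosen with earlier results of these data known. Named beside the members were HNRNPC, ATF4, DDIT3, TRIB3 and ASNS, up to 3 called genes of smallest adjusted p per list and comparison, all tested sensors, and the 5 genes most like HSPA5, DNAJB9 (not in all tables) and XBP1. Other genes, such as SARS, were named after their values were seen. Not every result of the lists is reported here. Same-numbered libraries deviated together in every pair for LM2 against Par nuclei (r 0.161 to 0.764) and T4 at 72 h (0.142 to 0.641), so the numbers were taken to pair there. The block left the member calls at 0 in both.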

Additional observations from a re-analysis of the deposited data

How the results depend on the processing

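No member changed direction among those called, but several calls depended on few libraries. In LM2 against Par cytoplasm the count of called members fell from 3 to 0 with library totals, and ranged from 0 to 2 when each library was left out. In the knockdown cytoplasm it ranged from 2 (without gHNRNPC library 2) to 4. In knockdown nuclei it was 1 with library totals and 1 to 3 leaving out a library. For T4 at 6 h it was 0 in a fit on those 6 libraries alone and 1 to 2 leaving out a library. It was 2 without DMSO library 1 (adding HSPA5, +1.21, adjusted p = 0.033, edgeR), without T4 library 1 (adding PDIA4, +1.14, adjusted p = 0.028) or without T4 library 3 (adding PDIA6). At 24 h, fitting those libraries alone called 1 member, CALR (−0.48, adjusted p = 0.039, edgeR). The change of the T4 effect from 6 to 24 h called 0 to 2 members leaving out a library. Using same-version rows only, nuclear against cytoplasmic calls were 5 of 6 tested in each of LM2, gCTRL and gHNRNPC cells, where 8 of 9 were called with all rows. Limma called 1 member for end use in knockdown cytoplasm (HSP90B1), with or without the replicate block.

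With the replicate block, 1 member call changed, that of CALR in the knockdown cytoplasm (adjusted p = 0.060, edgeR), and 913 genes were called higher and 918 lower there in place of 1096 and 1091. Paired by number, 134 (68 higher, 66 lower) in place of 188 genes were called in LM2 nuclei, and 12 in place of 21 for T4 at 72 h.

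Calls over all genes ranged from 223 to 2490 (929 in LM2 cytoplasm), 28 to 257 (188 in LM2 nuclei), 1397 to 2275 (2187 in knockdown cytoplasm) and 785 to 1322 (1323 in knockdown nuclei). For T4 they ranged from 413 to 1912 (1287 at 6 h), 167 to 1852 (421 at 24 h) and 0 to 73 (21 at 72 h). Median-of-ratios scaling raised the share of higher calls in LM2 cytoplasm from 36.3 to 54.6% and lowered it for T4 at 24 h from 42 to 31.1%. Library totals moved it to 64.7 and 43.6% in knockdown cytoplasm and nuclei, and to 4.81, 24.5 and 66.7% for T4 at 6, 24 and 72 h, with shifts of the median log2 of +0.14, −0.12, −0.40, −0.20 and +0.16. Depth limits HSPA5, DNAJB9 and PDIA3 most, which had few reads in the cytoplasm.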
